A study of Homo sapiens with 10 samples.

Results

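The BCL2 family apoptosis regulators were followed in 2 RNA-seq experiments on HCT116, a human colorectal cancer cell line. The 10 genes were taken by exact symbol, and all 10 were found among the 13029 genes listed in the first experiment and among the 17642 listed in the second. They comprise 5 BH3-only genes (*BBC3*, *PMAIP1*, *BID*, *BIK* and *BCL2L11*), 2 effectors (*BAX* and *BAK1*) and 3 pro-survival genes (*BCL2*, *BCL2L1* and *MCL1*). The first experiment compared 3 libraries of a *ZMAT3*-WT clone with 3 of a *ZMAT3*-KO clone, and the second compared 2 libraries of siCTRL cells with 2 of sip53 cells, which had received a control siRNA or a pool of 4 siRNAs to p53 for 72 hr. The labels state that no drug was given in any group, and the descriptions of all 6 *ZMAT3* libraries also carry the terms EV and unt, which they do not explain. The *ZMAT3*-KO cells were 1 clone, made by CRISPR/Cas9 with guides on either side of a p53 response element within an intron of *ZMAT3*, so that a difference of the clone and a difference due to *ZMAT3* cannot be told apart. The replicates were cultures, and p-values measure only the spread between them.

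Cells commit to mitochondrial apoptosis when BAX or BAK assembles into pores in the mitochondrial outer membrane and cytochrome c escapes to switch on the caspases. Pro-survival proteins such as BCL-2, BCL-XL and MCL-1 hold the effectors in check, and BH3-only proteins promote death by binding the pro-survival proteins or by activating BAX and BAK directly. p53 is known to induce transcription of several family members, above all *BBC3* (PUMA), *PMAIP1* (NOXA) and *BAX*, and ZMAT3 is a p53-induced RNA-binding protein that regulates splicing.

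The promoters of the 4 members with lower mRNA in sip53 cells are shown, since p53 acts on its targets through DNA that carries its response element. Each runs from 250 bases before to 50 bases after a RefSeq transcription start on GRCh38.p14, 5′ to 3′ on the strand of the gene, and capitals mark a match to the p53 decamer, the repeated unit of the response element, found on either strand. The windows are chr6:33580227-33580526 on the minus strand for *BAK1*, chr18:59899746-59900045 on the plus strand for *PMAIP1*, chr19:47232618-47232917 on the minus strand for *BBC3* and chr19:48954625-48954924 on the plus strand for *BAX*.
BAK1: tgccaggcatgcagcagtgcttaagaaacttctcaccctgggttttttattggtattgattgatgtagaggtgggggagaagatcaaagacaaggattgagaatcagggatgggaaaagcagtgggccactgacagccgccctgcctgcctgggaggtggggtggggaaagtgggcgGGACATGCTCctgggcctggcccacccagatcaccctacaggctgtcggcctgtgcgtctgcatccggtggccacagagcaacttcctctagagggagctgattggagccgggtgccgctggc
PMAIP1: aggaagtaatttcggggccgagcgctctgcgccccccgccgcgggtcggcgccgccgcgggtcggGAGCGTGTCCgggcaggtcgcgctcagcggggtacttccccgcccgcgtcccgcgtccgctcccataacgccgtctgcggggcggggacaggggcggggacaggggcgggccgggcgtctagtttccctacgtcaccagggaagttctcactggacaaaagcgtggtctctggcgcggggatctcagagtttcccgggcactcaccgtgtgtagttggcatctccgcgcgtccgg
BBC3: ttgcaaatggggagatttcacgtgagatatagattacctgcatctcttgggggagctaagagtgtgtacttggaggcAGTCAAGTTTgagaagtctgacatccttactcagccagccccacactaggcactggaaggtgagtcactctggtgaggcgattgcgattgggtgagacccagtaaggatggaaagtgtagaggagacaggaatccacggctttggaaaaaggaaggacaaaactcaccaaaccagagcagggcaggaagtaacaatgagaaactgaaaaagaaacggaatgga
BAX: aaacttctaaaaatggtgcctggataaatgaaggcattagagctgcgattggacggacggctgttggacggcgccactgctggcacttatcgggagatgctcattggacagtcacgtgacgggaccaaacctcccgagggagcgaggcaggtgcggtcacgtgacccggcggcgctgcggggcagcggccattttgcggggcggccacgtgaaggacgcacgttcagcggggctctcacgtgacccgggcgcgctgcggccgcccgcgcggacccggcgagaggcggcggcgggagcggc
The match in *BAK1* was exact and lay 73 bases before the start. Those in *PMAIP1* and *BBC3* held 1 mismatch and lay 185 and 173 bases before it, and the *BAX* window held none. Over the 8 members with a window, an exact decamer was in 1 of 13 windows and one with up to 1 mismatch outside its fixed C and G in 7 of 13, against 6.63% and 45.1% of all 35116 windows. Windows of *BID* overlap, and its 1 match is counted in more than 1 of them. By member, 6 of the 8 held a match with up to 1 mismatch. Windows were not found for *BIK* and *MCL1*. A match is a description of the letters in a short window, and response elements outside it were not searched.

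The gene targeted in the knockout was read first. Mean *ZMAT3* mRNA was 5.15 log2 CPM in *ZMAT3*-WT and 2.26 log2 CPM in *ZMAT3*-KO cells (log2 fold change −2.89, limma adjusted p = 3.8e-12), where *CDKN1A*, the p53 target that encodes p21, was also lower (log2 fold change −0.53). In sip53 cells *ZMAT3* had a log2 fold change of −2.31 (limma adjusted p = 0.067). The 5 epithelial markers read (*EPCAM*, *CDH1*, *KRT8*, *KRT18* and *KRT19*) were present in both experiments, and of 5 markers of leukocytes, fibroblasts and endothelium only *COL1A1* was tested, at a mean of 3.26 log2 CPM in *ZMAT3*-WT cells and 4.75 FPKM in siCTRL cells. *KRT8*, *KRT18* and *KRT19* were lower in *ZMAT3*-KO cells, with log2 fold changes of −0.94, −0.82 and −1.75, while *EPCAM* (0.0085) and *CDH1* (0.049) did not pass. With sip53 *EPCAM* was higher past the unadjusted threshold (log2 fold change 0.60, limma adjusted p = 0.247), and the other 4 did not pass. The part of these differences in the results was not tested. Values are RNA of whole cultures, in which fewer cells of a type and less RNA per cell cannot be told apart. They are also 1 value per gene, so the long and short isoforms of *BCL2L1* (BCL-XL and BCL-XS), of *MCL1* and of *BCL2L11* (BIM) were not separated.

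FPKM is scaled by transcript length, so the siRNA experiment gives an order of the members, for its own libraries only. The unit was inferred, as described below, and the order was not checked in the *ZMAT3* experiment. Mean log2 CPM in *ZMAT3*-WT cells, which is not scaled by length, was 7.78 for *MCL1*, 7.46 for *BCL2L1* and 5.74 for *PMAIP1*. In siCTRL cells *BCL2L1* was highest, at a mean of 212 FPKM, followed by *PMAIP1* at 106 FPKM, *BAX* at 76.4 FPKM, *MCL1* at 57.0 FPKM and *BID* at 49.3 FPKM. Below them came *BAK1* at 29.4 FPKM, *BBC3* at 23.0 FPKM, *BIK* at 21.0 FPKM, *BCL2L11* at 9.25 FPKM and *BCL2*, the founding member of the family, at 0.93 FPKM. The libraries of *MCL1* and *BID* overlapped, as did those of the neighbours *BAK1* and *BBC3*, and *BBC3* and *BIK*. In sip53 cells *BAX* stood below *BID* and *MCL1*, and *BAK1*, at 12.3 FPKM, overlapped *BIK* and *BBC3*. *BCL2L1* made up 81.6% and 75.2% of the summed pro-survival FPKM in the siCTRL libraries and 79.4% and 84.8% in the sip53 libraries.

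**Figure D1:**
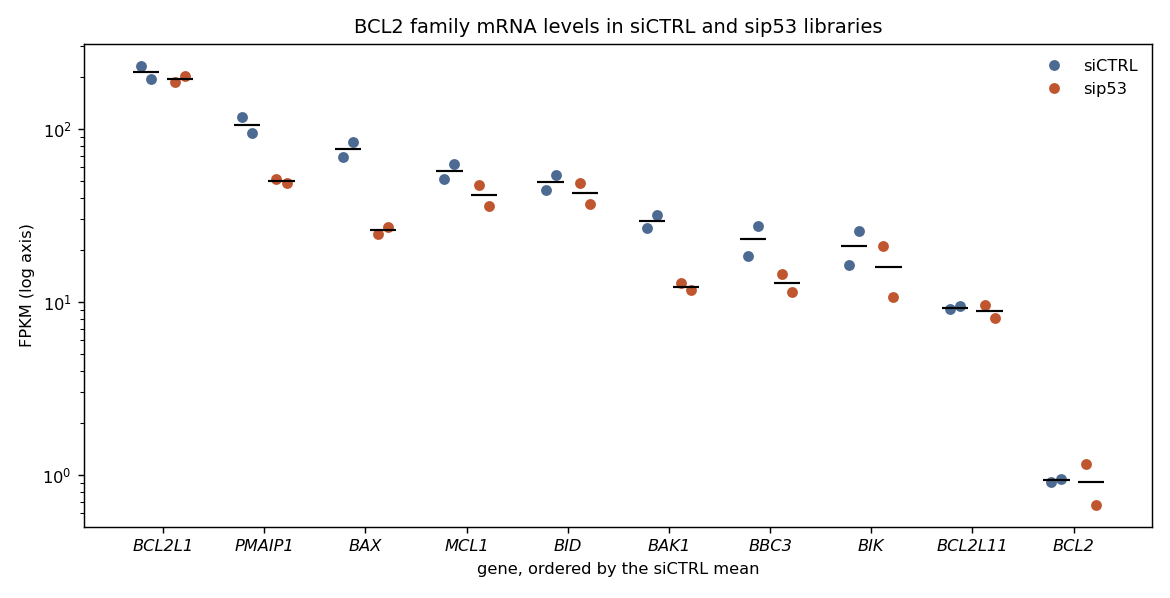
FPKM of the 10 BCL2 family genes on a log axis in the 2 siCTRL and 2 sip53 libraries, ordered by the siCTRL mean; points are libraries and bars are means. The sip53 points of *PMAIP1*, *BAX*, *BAK1*, *BBC3* and *MCL1* lie below both siCTRL points, and *BCL2* lies lowest in both groups.

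Both effectors and 2 of the 5 BH3-only genes were lower in sip53 cells. *BAX*, *BAK1*, *PMAIP1* and *BBC3* fell to 33.9%, 41.8%, 47.1% and 56.1% of their siCTRL means, each past an unadjusted p of 0.05 by limma, while no member was higher and none of the pro-survival genes passed. The 4 of 10 members lower compare with 9.28% of the 14274 genes tested, against 5.86% higher and 15.1% in either direction. None of the 10 passed an adjusted p of 0.05 by limma, which 0.273% of all genes did, 0.035% higher and 0.238% lower. The members' median log2 fold change was −0.45, against −0.040 for all genes. Fold changes are on the log2(FPKM + 0.1) scale, and centring each library on its median gene changed the split of all genes from 836 higher and 1325 lower to 1120 and 1048, with the same 4 members lower.

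*BAX*, one of the pore-forming effectors (chr19:48954815-48961798, plus strand, gene span in GENCODE v44 on hg38), was at 68.9 and 83.8 FPKM in siCTRL cells and at 24.7 and 27.2 FPKM in sip53 cells. Both sip53 libraries lay far below both siCTRL libraries. The log2 fold change was −1.55 ± 0.19 (SE, n = 2 per group, limma p = 0.000346, adjusted p = 0.0705, exact permutation p = 0.333). *BAK1*, the other effector (chr6:33572547-33580293, minus strand), was at 26.8 and 31.9 FPKM in siCTRL cells and at 12.8 and 11.7 FPKM in sip53 cells. Its groups were also apart, with a log2 fold change of −1.25 ± 0.19 (SE, limma p = 0.000882, adjusted p = 0.10, exact permutation p = 0.333). This is the member with the exact decamer in the window shown, and the part of that match in the difference was not tested. Its processed pseudogene *BAK1P1*, which could take some of its reads, was at 1.28 FPKM in siCTRL and 0.62 FPKM in sip53 cells.

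*PMAIP1* encodes NOXA, a BH3-only protein that binds MCL-1 (chr18:59899996-59904305, plus strand). It was at 117 and 94.4 FPKM in siCTRL cells and at 51.3 and 48.5 FPKM in sip53 cells, with no overlap. Its log2 fold change was −1.08 ± 0.20 (SE, limma p = 0.00222, adjusted p = 0.123, exact permutation p = 0.333). *BBC3*, which encodes PUMA, a BH3-only protein that binds every main pro-survival protein (chr19:47220822-47232766, minus strand), was at 18.4 and 27.6 FPKM in siCTRL cells and at 14.5 and 11.3 FPKM in sip53 cells. Its groups did not overlap, but the siCTRL libraries differed more from each other than the nearest pair across groups. The log2 fold change was −0.81 ± 0.27 (SE, limma p = 0.026, adjusted p = 0.256, exact permutation p = 0.333). It rested on single libraries, being −0.52 without siCTRL replicate 2 and −0.64 without sip53 replicate 2, neither past the unadjusted threshold. With 2 libraries per group an exact permutation test cannot go below 0.333.

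The other BH3-only genes gave wide intervals. *BID*, which caspase-8 cleaves to link death receptors to mitochondria (chr22:17734138-17774770, minus strand), was at 44.6 and 54.0 FPKM in siCTRL cells and at 48.8 and 36.6 FPKM in sip53 cells. Its 95% interval ran from −0.78 to 0.36 on the log2 scale. *BIK*, a BH3-only protein found mainly at the endoplasmic reticulum (chr22:43110750-43129712, plus strand), was at 16.3 and 25.7 FPKM against 21.2 and 10.7 FPKM (95% interval −1.44 to 0.56). Both genes overlapped between the groups. *BIK* had a log2 fold change of −0.93 without sip53 replicate 1, past the unadjusted threshold, and of 0.048 without sip53 replicate 2, so its direction turned on 1 library. *BCL2L11*, which encodes the strong activator BIM (chr2:111119378-111168444, plus strand), was at 9.08 and 9.42 FPKM against 9.54 and 8.08 FPKM (95% interval −0.55 to 0.40), again overlapping.

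The pro-survival genes did not pass the test with sip53. *BCL2L1* was at 232 and 193 FPKM in siCTRL cells and at 186 and 203 FPKM in sip53 cells (95% interval −0.62 to 0.38). *MCL1*, whose protein turns over fast (chr1:150560895-150579738, minus strand), was at 51.2 and 62.8 FPKM against 47.3 and 35.8 FPKM. Its libraries did not overlap, but the log2 fold change of −0.46 had an interval from −1.03 to 0.11 and did not pass. *BCL2* (chr18:63123346-63320128, minus strand) was at 0.91 and 0.95 FPKM against 1.15 and 0.67 FPKM (95% interval −1.06 to 0.92), so that the sip53 libraries fell on either side of the siCTRL ones. Groups did not overlap for 5 of the 10 members, against 46.4% of all genes tested.

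Summed by role, the effectors gave 95.7 and 116 FPKM in siCTRL cells and 37.5 and 38.9 FPKM in sip53 cells. The pro-survival genes gave 284 and 257 FPKM against 235 and 239 FPKM. The summed effector level was thus 0.337 and 0.450 of the summed pro-survival level in the siCTRL libraries, and 0.159 and 0.162 of it in the sip53 libraries. The summed BH3-only level was 0.725 and 0.821 of the pro-survival sum in siCTRL cells and 0.618 and 0.481 in sip53 cells. Both ratios were lower in each sip53 library than in each siCTRL library, and as descriptions of mRNA they carry no test.

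In the *ZMAT3*-KO clone every member differed from *ZMAT3*-WT by less than 1.5-fold. No member passed the adjusted p of 0.05 with the 1.5-fold change that the study used, which 8.96% of all 13029 genes did, 4.6% higher and 4.37% lower. At the adjusted p alone 7 of 10 members passed, 2 higher and 5 lower, but so did 58.8% of all genes, 28.7% higher and 30.1% lower. Without adjustment, 2 members were higher and 6 lower at p of 0.05, against 30.8% and 32.4% of all genes (63.2% together). Thus, without a fold threshold and in either direction, the share of members called was near that of all genes. By direction it was less even, with 5 of 10 members lower against 30.1% of all genes at the adjusted p alone. The difference between these shares was not tested. The median log2 fold change of the members was −0.19, against −0.0052 for all genes. The values are log2 CPM, which is not scaled by length, so levels are compared only within a gene. The KO clone's largest member difference was in *BCL2L1*.

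**Figure D2:**
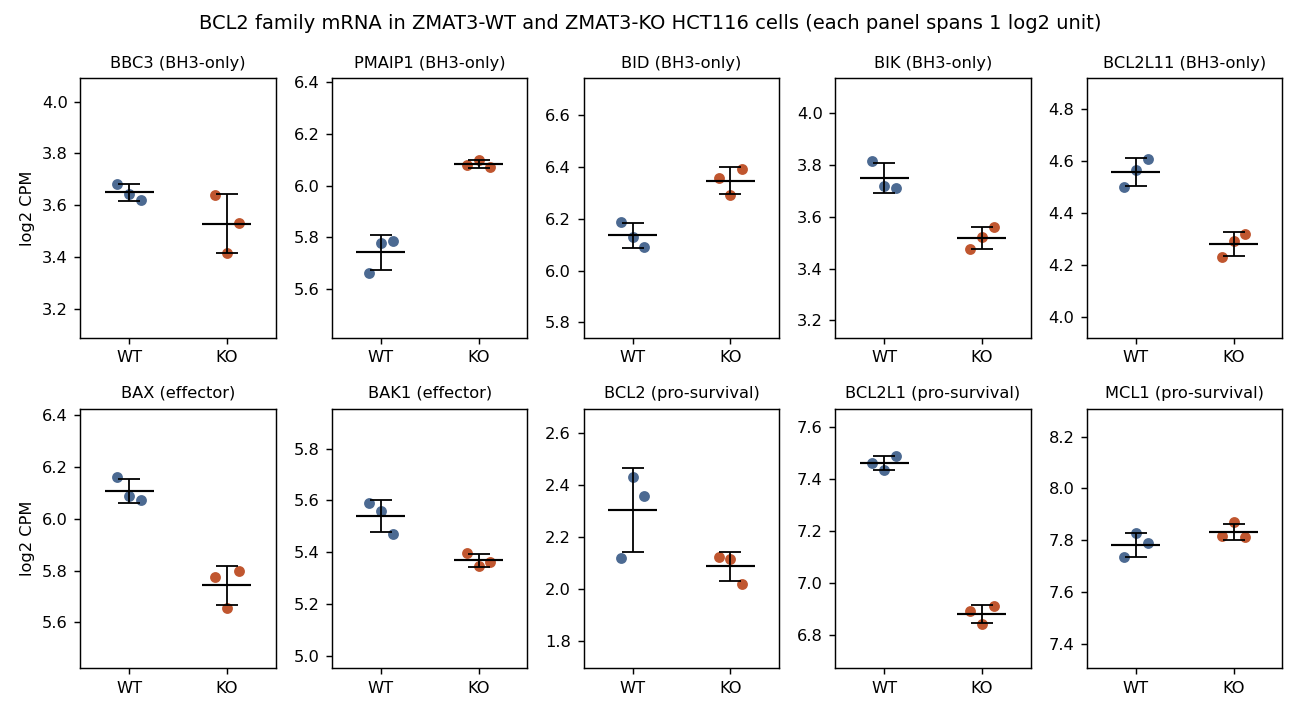
log2 CPM of the 10 genes in the 3 *ZMAT3*-WT and 3 *ZMAT3*-KO libraries; points are libraries, the wide bar is the mean and the error bar the SD, and each panel spans 1 log2 unit. The groups are apart for all genes except *BBC3*, *BCL2* and *MCL1*, with the widest gap in *BCL2L1*.

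*BCL2L1*, the most abundant pro-survival transcript in the siRNA experiment (chr20:31664452-31723989, minus strand), was at 7.46, 7.44 and 7.49 log2 CPM in *ZMAT3*-WT cells and at 6.89, 6.84 and 6.91 log2 CPM in *ZMAT3*-KO cells. All KO libraries lay below all WT libraries. The log2 fold change was −0.58 ± 0.030 (SE, n = 3 per group, limma adjusted p = 5.93e-09), or 1.498-fold lower, just short of the 1.5-fold threshold. It crossed that threshold, making 1 member called lower, without WT replicate 2, KO replicate 1 or KO replicate 3. Of the other pro-survival genes, *BCL2* was at 2.12, 2.43 and 2.36 log2 CPM in WT and at 2.12, 2.12 and 2.02 log2 CPM in KO cells. Its groups overlapped through WT replicate 1, and its log2 fold change of −0.22 missed the threshold (limma adjusted p = 0.0638) but passed it without that library (−0.31, adjusted p = 0.0116). Leaving out each of the other libraries gave −0.15 without WT replicate 2 (limma adjusted p = 0.232) to −0.24, none past the threshold. *MCL1* was at 7.73, 7.83 and 7.79 log2 CPM in WT and at 7.82, 7.87 and 7.81 log2 CPM in KO cells, overlapping, with an interval of −0.017 to 0.12 (limma adjusted p = 0.179).

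Both effectors were lower in *ZMAT3*-KO cells at the adjusted p. *BAX* was at 6.16, 6.09 and 6.07 log2 CPM in WT and at 5.78, 5.66 and 5.80 log2 CPM in KO cells. *BAK1* was at 5.59, 5.56 and 5.47 log2 CPM against 5.40, 5.35 and 5.36 log2 CPM. Neither gene overlapped between the groups. The log2 fold changes were −0.36 ± 0.042 for *BAX* (SE, limma adjusted p = 1.13e-05) and −0.17 ± 0.039 for *BAK1* (adjusted p = 0.0025).

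The BH3-only genes went both ways. *PMAIP1* was at 5.66, 5.78 and 5.79 log2 CPM in WT and at 6.08, 6.10 and 6.07 log2 CPM in KO cells, and every KO library lay above every WT library. It rose 1.27-fold (log2 fold change 0.34 ± 0.038 SE, limma adjusted p = 7.66e-06). *BID* was at 6.19, 6.13 and 6.09 log2 CPM in WT and at 6.36, 6.29 and 6.39 log2 CPM in KO cells, likewise apart, and rose 1.16-fold (log2 fold change 0.21 ± 0.037 SE, adjusted p = 0.00036). *BCL2L11* was at 4.50, 4.57 and 4.61 log2 CPM in WT and at 4.23, 4.29 and 4.32 log2 CPM in KO cells (log2 fold change −0.28 ± 0.046 SE, limma adjusted p = 0.00024). *BIK* was at 3.81, 3.72 and 3.71 log2 CPM against 3.48, 3.52 and 3.56 log2 CPM (log2 fold change −0.23 ± 0.054 SE, limma adjusted p = 0.0030). Both were lower with no overlap. *MIR4435-2HG*, a gene that overlaps *BCL2L11*, was also lower (3.95 log2 CPM in WT and 3.74 log2 CPM in KO cells, log2 fold change −0.21, limma adjusted p = 0.0076), and its part in the *BCL2L11* value was not tested. *BBC3* was at 3.68, 3.65 and 3.62 log2 CPM against 3.64, 3.42 and 3.53 log2 CPM, overlapping through KO replicate 1, with a log2 fold change of −0.12 (limma adjusted p = 0.118). Without that library it was −0.18 (limma adjusted p = 0.0373), and without KO replicate 2 it was −0.063 (adjusted p = 0.403). Groups were apart for 7 of the 10 members, against 64.2% of all genes, and each of these 7 reached 0.10, the smallest exact permutation p for 3 against 3 libraries.

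Side by side, *BAX* and *BAK1* were lower in both experiments, at the adjusted p in *ZMAT3*-KO and the unadjusted p in sip53 cells. By these rules 30.1% and 9.28% of all genes were lower. *BBC3*, *BIK*, *BCL2L11*, *BCL2* and *BCL2L1* also had negative log2 fold changes in both, but none of them passed both rules. *PMAIP1* had a log2 fold change of 0.34 in *ZMAT3*-KO and −1.08 in sip53 cells, and *BCL2L1* of −0.58 and −0.12. The tables were normalized separately, and the differences between the experiments were not tested.

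**Figure D3:**
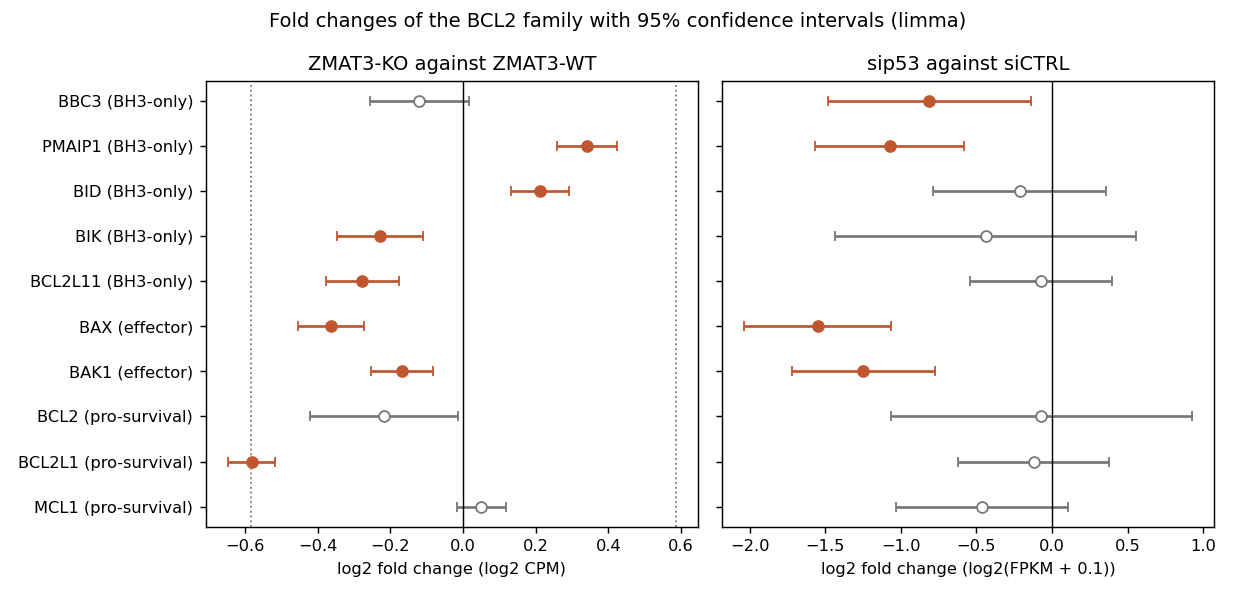
log2 fold changes with 95% confidence intervals by limma for *ZMAT3*-KO against *ZMAT3*-WT (left) and sip53 against siCTRL (right); filled points pass an adjusted p of 0.05 on the left and an unadjusted p of 0.05 on the right, dotted lines mark 1.5-fold, and the x axes differ. *BCL2L1*, at −0.58, is farthest from 0 on the left and *BAX*, at −1.55, on the right.

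Around the members, 5 further lists of cell death genes were read in both experiments. Of 12 other BCL2 family genes, 8 were tested in *ZMAT3*-KO cells. Of these, 1 passed the adjusted p with the 1.5-fold change, against 8.96% of all genes, and 6 passed an unadjusted p of 0.05 by limma (63.2% of all genes). The 1 was *HRK*, a BH3-only gene at a low level (1.76 log2 CPM in WT and 1.08 log2 CPM in KO cells), which was lower (log2 fold change −0.68). With sip53 9 were tested, of which 2 were higher and 3 lower past the unadjusted threshold, against 5.86% and 9.28% of all genes. The higher were *BMF*, a BH3-only gene at a low level (0.79 FPKM in siCTRL and 1.70 FPKM in sip53 cells), and the mitophagy receptor gene *BNIP3* (log2 fold change 0.61). The lower were pro-survival *BCL2L2* (−0.94), whose exons a read-through transcript shares, *BCL2L13* (−0.61) and *BOK* (−0.53), a BAX-like gene. The medians were 0.025 and 0.077.

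Of the 20 genes of the apoptosome, the caspases and their inhibitors, 1 passed with 1.5-fold in *ZMAT3*-KO cells, against 8.96% of all genes. At an unadjusted p of 0.05 by limma 13 passed (63.2% of all genes). The 1 was *BIRC3*, which encodes the inhibitor cIAP2 (log2 fold change −0.72), at a low level of 1.58 log2 CPM in WT and 0.86 log2 CPM in KO cells. With sip53 4 of the 20 passed the unadjusted threshold, against 15.1% of all genes, and none passed an adjusted p of 0.05 by limma. The inhibitor gene *BIRC5* (survivin) was higher (0.86), and *CASP8* (−0.75), *CASP6* (−0.67) and *CASP2* (−0.54) were lower. The medians were 0.00080 and −0.15. Of the 12 mitochondrial outer membrane genes and BAX or BAK partners none passed with 1.5-fold in KO cells by limma and 6 did at an unadjusted p of 0.05 (63.2% of all genes), the extremes being the mitochondrial fusion genes *OPA1* (−0.30) and *MFN1* (0.36). With sip53 2 of the 12 passed the unadjusted threshold, against 15.1% of all genes. The fission factor gene *MFF* was higher (0.45) and the fusion gene *MFN2* lower (−0.49), and the medians were 0.059 and −0.050.

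Of 13 genes that control BH3-only genes or MCL1, none passed with 1.5-fold in *ZMAT3*-KO cells by limma and 12 did at an unadjusted p of 0.05 (63.2% of all genes), between *MYC* (−0.30) and *TRIB3* (0.53). With sip53 3 of the 13 passed the unadjusted threshold, against 15.1% of all genes. *DDIT3*, which encodes the stress factor CHOP, rose (log2 fold change 2.24, limma adjusted p = 0.039). *TRIB3*, a CHOP target, was higher (0.54), and *FBXW7*, the ubiquitin ligase gene that acts on MCL-1, was lower (−0.52). The medians were 0.12 and 0.23.

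Of 12 p53 targets linked to cell death outside the family, 11 were tested in *ZMAT3*-KO cells. None passed with 1.5-fold by limma, while 8 did at an unadjusted p of 0.05 (63.2% of all genes). The 11 lay between *TRIAP1* (−0.42) and *TP53INP1* (0.44), for a median of −0.094. With sip53 7 of 10 were lower, against 9.28% of all genes, and none higher, the median log2 fold change being −1.32. *TP53INP1*, a stress-induced p53 cofactor gene, fell most (−3.30, limma adjusted p = 0.039), and *PHLDA3* (−1.85), *AEN* (−1.52), *TP53I3* (−1.48), *FAS* (−1.39), *TRIAP1* (−1.24) and *TNFRSF10B* (−0.96) passed the unadjusted threshold. *FAS* and *TNFRSF10B* encode death receptors. *BAX*, at −1.55, *BAK1*, at −1.25, and *PMAIP1*, at −1.08, lay within the range of these 7 genes, and *BBC3*, at −0.81, lay outside it. The list was assembled from known p53 targets with earlier results of these data known and gives no independent support.

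**Figure D4:**
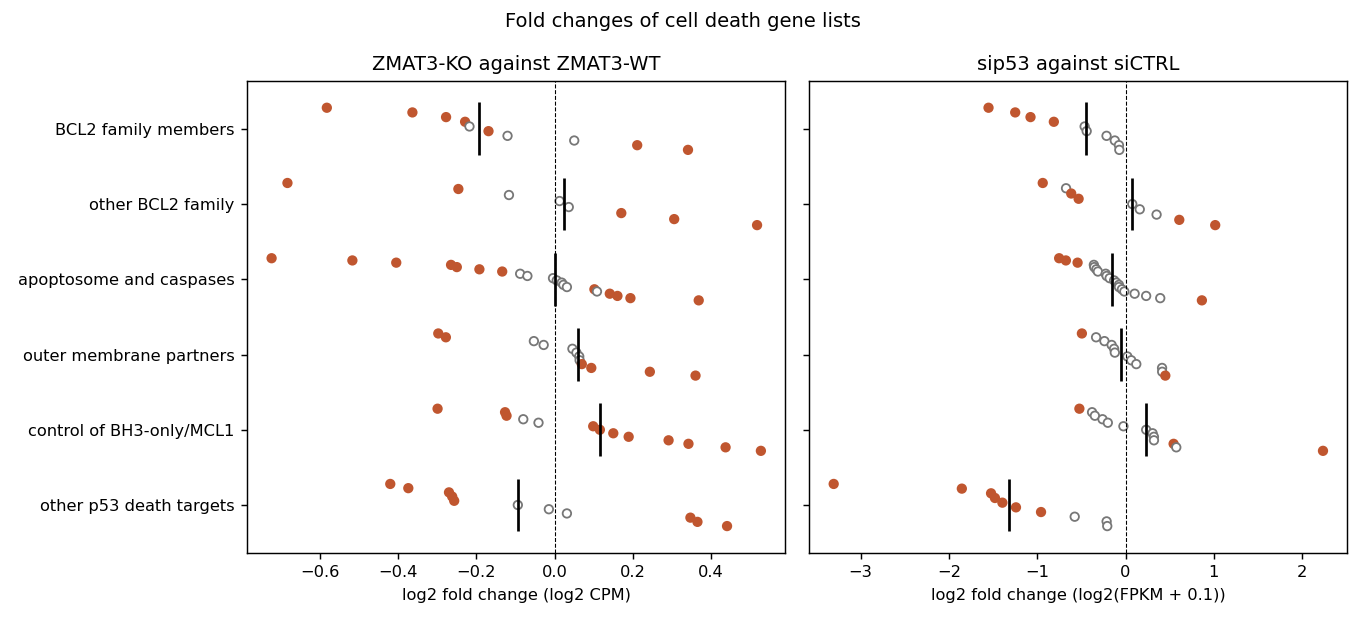
log2 fold changes of each gene in the BCL2 family members and 5 other lists for *ZMAT3*-KO against *ZMAT3*-WT (left) and sip53 against siCTRL (right); points are genes, filled where the adjusted p (left) or the unadjusted p (right) is under 0.05, and vertical bars are medians. With sip53 the other p53 death targets have the lowest median, −1.32, followed by the members at −0.45.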

How the data were processed

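RNA-seq of 10 HCT116 libraries was analysed, grouped by their labels. For the *ZMAT3* experiment the authors sequenced stranded poly(A) libraries, trimmed reads with Cutadapt, aligned them with STAR and used RSEM for quantification. The authors deposited these as log2 CPM, and the 6 libraries share 1 distribution of values. The values that the authors deposited for the siRNA comparison were read here as FPKM: over 345 single-transcript genes, the log2 of the value per mean signal fell with log2 exon length with a slope of −0.921. That mean signal per gene, also deposited, served only this check. The siRNA processing is not described in the paper's text; the submitters' processing notes list CASAVA 1.8.2, TopHat2 2.0.8 and FastQC 0.11.2 and the builds hg19 and hg38. The authors' fold changes and p-values, held in both tables, were not used. No read counts were analysed here, so depth is unknown. The samples' summed FPKM ran from 708634 to 829230.

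Differences were tested with limma 3.58.1 (R 4.3.3, empirical Bayes with a variance trend) on all genes, with Benjamini-Hochberg adjustment. For FPKM, log2(FPKM + 0.1) was used for the 14274 genes whose mean reached 0.5 FPKM. Calls needed an adjusted p of 0.05 and 1.5-fold in *ZMAT3*-KO cells, and an unadjusted p of 0.05 with sip53. On simulated data, 200 genes were changed by a log2 of 1. An adjusted p of 0.05 with no fold threshold called 95% of them among 13029 genes in the *ZMAT3* design. An unadjusted p of 0.05 called 85.5% among 14274 genes in the siRNA design (5.89% of unchanged genes there). The simulated noise was independent between libraries, whereas real siRNA libraries of opposite number deviated alike, so these rates need not hold for the siRNA data. All tests were two-sided. Exact permutation tests covered single genes.

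All 10 members were named, with every called gene of the other lists, or else the genes with the lowest and highest log2 fold change. *APAF1* is in 2 lists. Members and lists were chosen with earlier results of these data known. A check of the siRNA labels is not reported here. Gene positions are from GENCODE v44 on hg38, and promoters from RefSeq on GRCh38.p14; 8 of 10 members had a window. The alternatives were other pseudocounts, filters, scalings, thresholds, a replicate block and leaving out each library. Strand is not given for the siRNA libraries in the sources used here, so members that overlap other genes (*BAK1*, *BCL2*, *BCL2L1*, *BCL2L11*, *MCL1*, and *BBC3* and *BID* with miRNA genes) may share reads with them.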

Additional observations from a re-analysis of the deposited data

How the results depend on the processing

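Among the values of single members, 108 of 110 under alternatives kept their direction and their side of an adjusted p of 0.05, with no fold threshold, in the *ZMAT3* experiment, and with sip53 100 of 109 kept their direction and their side of the unadjusted threshold. Filters, the variance trend and the replicate block leave a log2 fold change as it is, so these could not turn a direction. Centring could hardly move the *ZMAT3* values, since those libraries share a distribution. With no fold threshold, *ZMAT3*-KO cells had 2 members higher and 5 lower, and at an unadjusted p of 0.05, chosen after seeing the data, 2 and 6. With the 1.5-fold threshold, leaving out 1 library gave 0 to 1 members lower there, the member being *BCL2L1* (−0.60 without WT replicate 2 or KO replicate 3, −0.59 without KO replicate 1). With sip53, 4 members were lower; an adjusted p left 0, and leaving out 1 library gave 3 to 5. Directions turned on centring for *BCL2L11* (0.0016) and *BCL2* (0.0058), without sip53 replicate 2 for *BIK*, *BCL2L11* and *BCL2*, and without siCTRL replicate 1 for *BCL2L1*; none of these reversed values passed. Leaving out 1 library gave log2 fold changes of −0.93 to 0.048 for *BIK*, −0.19 to 0.044 for *BCL2L11*, −0.42 to 0.28 for *BCL2* and −0.25 to 0.0086 for *BCL2L1*. Over all genes in *ZMAT3*-KO cells, 599 were higher and 569 lower; a pseudocount of 1 CPM gave 397 higher, a 2-fold threshold 200 and 196, no fold threshold 3734 and 3925, and an unadjusted p 4014 and 4215. With sip53, 836 were higher and 1325 lower; an adjusted p gave 5 and 34, a minimum mean of 5 FPKM 555 higher, leaving out siCTRL replicate 1 554 and 630, leaving out siCTRL replicate 2 499 and 728, and leaving out any 1 library 499 to 747 higher and 630 to 1202 lower.

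The replicate numbers did not pair the samples: correlations of same-numbered deviations were −0.039, −0.022 and −0.093 in the *ZMAT3* experiment and −0.616 in the siRNA experiment. With 2 libraries per group, the last value means that siRNA libraries of opposite number deviated alike, which the main fit does not use. A replicate block changed no member's call, with 0 called in *ZMAT3*-KO cells and 4 called lower with sip53, and over all genes gave 603 higher and 575 lower, and 434 higher and 650 lower. Crossing the siRNA numbers, added after seeing the data, gave 6 members lower and 2410 genes higher and 3128 lower. Depth is unknown, so the precision of low genes such as *BCL2* rests on the spread between libraries alone.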
